A study of Mus musculus with 10 samples.

Results

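The genes described here are 9 complement genes: C1qa, C1qb, C1qc, C2 and C4b of the early classical pathway, the central component C3, Cfb and Cfd of the alternative pathway, and Masp1 of the lectin pathway. They were taken as a list of gene symbols from the 24454 genes counted in brown adipose tissue (BAT), and all 9 were found in the count files. The list was selected on how these counts differ between control and Stat5Adipoq BAT, with that comparison already known. The fold changes of these 9 genes are therefore given as a description, without p-values.

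Complement is a cascade of plasma proteins in which proteases cut the next component in turn. The classical pathway starts when the recognition protein C1q binds a surface and C4 and C2 are cut, the lectin pathway reaches the same step through MASP proteases, and the alternative pathway joins C3b with factor B, which the protease factor D then cuts. All routes meet at C3. Adipocytes are the main source of factor D, also called adipsin, whereas C1q is made mostly by macrophages.

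RNA was taken from BAT of 5 control and 5 Stat5Adipoq mice, and 1 stranded mRNA library per mouse was sequenced with single reads of 50 bases. All mice were 2-month-old males on a C57BL/6N background that were fed ad libitum and had received no treatment. Stat5Adipoq mice carry floxed Stat5 and an Adipoq-Cre transgene, and controls are littermates with floxed Stat5 and no Cre according to the methods, although their labels read wild type. The Adipoq promoter drives Cre in adipocytes, so the other cells of the tissue keep Stat5. The libraries held 8.49 M to 19.5 M counts on genes. Levels are given as CPM, counts relative to the depth of each library scaled by edgeR's TMM factors, and the genotypes were set against each other over 13568 genes with edgeR's quasi-likelihood test, with a Benjamini-Hochberg adjusted p below 0.05 counted as a call. Stat5a was at 86.9 to 130 CPM in control and 15.8 to 20.7 CPM in Stat5Adipoq BAT, and Stat5b at 76.6 to 91.9 and 21.0 to 22.9 CPM, so all libraries matched their labels. The 8 adipocyte markers, with Adipoq, Pparg and Ucp1 among them, summed to 20597 to 30918 CPM in control and 22060 to 27677 CPM in Stat5Adipoq libraries. Control 3 stood apart, with 3581 CPM of 8 skeletal muscle markers and 93.0 CPM of 11 liver markers, against at most 297 and 3.73 CPM in the other controls. BAT is a bulk sample, in which fewer cells of a type and less RNA per cell cannot be told apart.

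Most of the 9 genes lie in clusters. On GRCm38, C1qb (chr4:136880126-136886200), C1qc (chr4:136889801-136892936) and C1qa (chr4:136895916-136898844) follow each other on the minus strand within 18719 bases. C4b (chr17:34728139-34743902), Cfb (chr17:34856374-34862514) and C2 (chr17:34862602-34882100) lie on the minus strand of chromosome 17 with 87 bases between Cfb and C2, and C3 lies alone on the same chromosome (chr17:57203967-57228136). Cfd is at chr10:79890853-79892655 on the plus strand. Masp1 (chr16:23451785-23521240) lies 293816 bases from Adipoq, whose promoter drives the Cre transgene. Some counts are uncertain because genes share sequence: 35.2% of the 50-base words of C4b occur in C4a, and Gm20547, a GENCODE gene that runs through Cfb and C2 in the same direction, overlaps 79.5% of the exon bases of Cfb and 42.8% of those of C2. C3, Cfd and the C1q genes share no such word with another gene.

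The RefSeq table for GRCm38.p6 held the promoters of 4 of the 9 genes. Its start site for C1qc lies inside the gene as placed above, since the window starts at 136892915 and the gene reaches to 136892936. The 250 bases before the start site are printed for C1qb and C1qc, whose levels were close in both genotypes, and for C3 and Cfd, whose levels did not overlap between them. Capitals mark the letters GAGGAA, the core motif of the myeloid factor PU.1, on either strand.
C1qb, chr4:136886201-136886450, minus strand: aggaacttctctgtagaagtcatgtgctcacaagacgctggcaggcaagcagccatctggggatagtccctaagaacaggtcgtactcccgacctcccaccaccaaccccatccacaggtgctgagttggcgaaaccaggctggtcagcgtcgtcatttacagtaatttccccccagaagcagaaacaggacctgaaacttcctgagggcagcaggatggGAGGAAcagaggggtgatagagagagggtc
C1qc, chr4:136892915-136893164, minus strand: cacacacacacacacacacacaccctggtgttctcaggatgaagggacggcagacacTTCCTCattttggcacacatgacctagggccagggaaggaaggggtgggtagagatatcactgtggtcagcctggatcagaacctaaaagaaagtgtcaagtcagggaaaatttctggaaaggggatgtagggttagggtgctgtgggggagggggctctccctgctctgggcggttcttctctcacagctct
C3, chr17:57228137-57228386, minus strand: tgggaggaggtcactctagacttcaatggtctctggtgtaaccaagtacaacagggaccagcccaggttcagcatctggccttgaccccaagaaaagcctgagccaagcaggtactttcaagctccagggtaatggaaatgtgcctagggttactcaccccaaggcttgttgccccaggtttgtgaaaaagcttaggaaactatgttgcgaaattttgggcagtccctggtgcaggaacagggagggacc
Cfd, chr10:79890603-79890852, plus strand: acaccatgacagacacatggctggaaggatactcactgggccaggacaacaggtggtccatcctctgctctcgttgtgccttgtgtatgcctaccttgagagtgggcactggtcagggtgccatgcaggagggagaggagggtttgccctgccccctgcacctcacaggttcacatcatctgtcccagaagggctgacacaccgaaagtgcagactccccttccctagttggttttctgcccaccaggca

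The GAGGAA core was found once in the C1qb window, starting 30 bases before the start site, and once in the C1qc window, on the other strand and starting 193 bases before it. It was absent from the C3 and Cfd windows, and 23.3% of the 32851 windows of this length in the table hold it. The STAT5 motif TTCNNNGAA was searched on both strands and occurred in 0 of the 4 windows, as compared to 7.02% of all windows. The TATA motif TATAAA, searched on both strands, was in 0 of the 4, as compared to 12.4%. No 2 motifs overlapped. These are matches of letters within 250 bases and say nothing of binding.

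Per length of exon, the 9 genes covered a wide range of levels in control BAT. Cfd was highest at 1503 RPKM (CPM per kilobase of exon), followed by C3 at 313 RPKM. C1qb with 21.5 RPKM and C1qa with 19.9 RPKM came next, and their control libraries overlapped at 18.4 to 28.0 and 16.8 to 27.1 RPKM. C1qc stood at 10.5 RPKM (8.88 to 12.6) and C4b at 8.0 RPKM (6.22 to 8.93), which overlapped with C1qc at its upper end and with Cfb, at 7.60 RPKM (5.59 to 9.11), over most of its range. C2 was at 3.03 RPKM and Masp1 at 0.0265 RPKM. These values divide by the exon bases of all transcripts joined, so the ranking depends on that length. C1qc has 1931 joined bases but 1203 in its longest transcript, while for C1qa and C1qb both lengths are equal. In CPM the control means of C1qa, C1qb and C1qc were 20.7, 23.4 and 20.3. For C2 the lengths are 3872 and 2641 bases, and for Masp1 9833 and 5345. In Stat5Adipoq BAT, Cfd at 566 RPKM and C3 at 195 RPKM still led, and C1qa at 19.8 RPKM and C1qb at 19.0 RPKM followed. C4b with 4.2 RPKM and Cfb with 4.0 RPKM were again neighbours. Together the 9 genes took 0.316% ± 0.0361 (SD, n = 5) of the counts of a control library and 0.162% ± 0.0274 (SD, n = 5) of those of a Stat5Adipoq library.

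**Figure D1:**
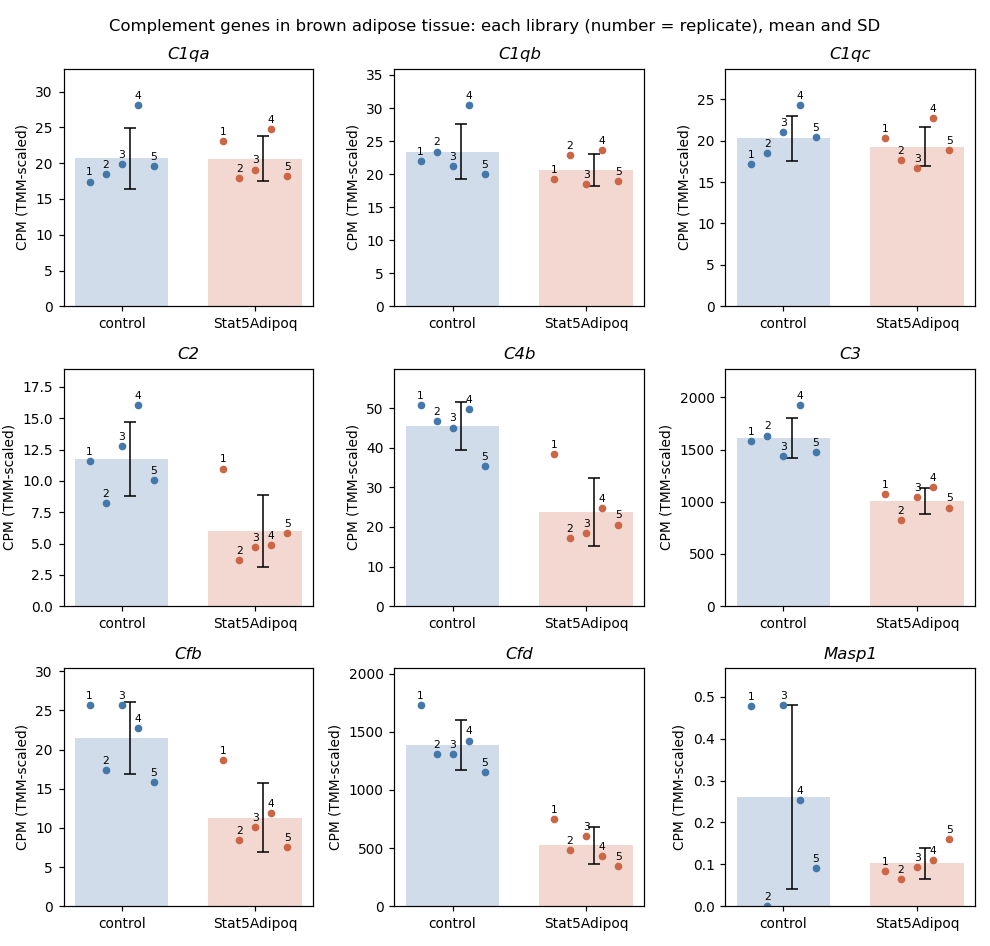
Level of each of the 9 genes in every library. The y axes give TMM-scaled CPM from 0, points are libraries with their replicate number, bars are the mean and error bars the SD of 5 libraries. C1qa, C1qb and C1qc overlap between the genotypes, C3 and Cfd do not overlap, and C2, C4b and Cfb overlap through Stat5Adipoq 1.

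C1qa, C1qb and C1qc encode the chains of C1q, the recognition protein of the classical pathway. C1qa was at 17.4, 18.5, 19.8, 28.2 and 19.6 CPM in controls 1 to 5 and at 23.1, 17.9, 19.1, 24.8 and 18.2 CPM in Stat5Adipoq 1 to 5. The groups overlapped over nearly their whole range, with control 4 above all others. The means were 20.7 ± 4.28 and 20.6 ± 3.13 CPM (SD, n = 5 each), a log2 fold change of -0.02 (standard error 0.14, 95% limits -0.32 to 0.29). C1qb was at 21.9, 23.4, 21.2, 30.5 and 20.01 CPM in control and 19.3, 22.8, 18.5, 23.7 and 18.9 CPM in Stat5Adipoq libraries. Control 4 was again the highest, and 3 of the Stat5Adipoq libraries lay below the lowest control. The log2 fold change was -0.19 (standard error 0.12, 95% limits -0.45 to 0.07). C1qc was at 17.1, 18.5, 21.0, 24.3 and 20.4 CPM in control and 20.3, 17.6, 16.7, 22.7 and 18.9 CPM in Stat5Adipoq libraries. Here too the groups overlapped, and the log2 fold change was -0.08 (standard error 0.11, 95% limits -0.32 to 0.16).

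The sum of the 3 C1q genes was 64.4 ± 10.6 CPM in control and 60.5 ± 6.75 CPM in Stat5Adipoq BAT (SD, n = 5 each). Markers of macrophages, the cells known for C1q, were examined beside it. All 10 markers were tested and 0 were called by edgeR, DESeq2 or limma-voom. In edgeR, 2 had an unadjusted p below 0.05, as did 15.2% of all tested genes. The log2 fold change was below 0 for 8 of the 10 markers, with a median of -0.13. Their sum ranged from 131 to 165 CPM in control and from 107 to 142 CPM in Stat5Adipoq libraries, and none of the 10 was at 0. The C1q sum was 45.3% ± 3.72 of the macrophage sum in control and 46.6% ± 5.63 in Stat5Adipoq BAT (SD, n = 5 each).

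C2 encodes the protease that joins C4b in the classical C3 convertase, which the lectin pathway also uses. C2 was at 11.6, 8.26, 12.7, 16.1 and 10.05 CPM in controls 1 to 5 and at 10.98, 3.72, 4.71, 4.85 and 5.83 CPM in Stat5Adipoq 1 to 5. The Stat5Adipoq libraries lay below all controls except for Stat5Adipoq 1, which was within the control range. The means were 11.7 ± 2.95 and 6.02 ± 2.87 CPM (SD, n = 5 each), a log2 fold change of -0.97 (standard error 0.27).

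C4b encodes complement C4, whose cut form binds covalently to surfaces. C4b was at 50.8, 46.7, 45.1, 49.7 and 35.4 CPM in control and 38.4, 17.3, 18.5, 24.7 and 20.6 CPM in Stat5Adipoq libraries. Again all Stat5Adipoq libraries but the first lay below every control, and the log2 fold change was -0.94 (standard error 0.19). Because C4b and C4a share sequence, both were also summed, which gave 48.4 ± 5.93 CPM in control and 25.4 ± 8.73 CPM in Stat5Adipoq BAT (SD, n = 5 each). How reads that match both genes were handled is not stated, and a sum does not restore reads that were left out.

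C3 encodes the protein that all pathways cut. C3 was at 1581, 1633, 1434, 1928 and 1480 CPM in controls 1 to 5 and at 1073, 824, 1043, 1141 and 945 CPM in Stat5Adipoq 1 to 5. Every Stat5Adipoq library lay below every control. The mean was 1611 ± 194 CPM in control and 1005 ± 124 CPM in Stat5Adipoq BAT (SD, n = 5 each), or 62.4% of control. The log2 fold change was -0.68 (standard error 0.10).

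Cfb encodes factor B, the protease of the alternative C3 convertase. Cfb was at 25.7, 17.4, 25.7, 22.7 and 15.8 CPM in control and 18.6, 8.46, 10.1, 11.9 and 7.51 CPM in Stat5Adipoq libraries. Only Stat5Adipoq 1 reached into the control range. The log2 fold change was -0.93 (standard error 0.23). The counts of Cfb and C2, whose loci Gm20547 spans, summed to 33.2 ± 6.81 CPM in control and 17.3 ± 7.07 CPM in Stat5Adipoq BAT (SD, n = 5 each).

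Cfd encodes adipsin, the protease that cuts factor B. Cfd was at 1733, 1310, 1310, 1425 and 1150 CPM in controls 1 to 5 and at 748, 485, 602, 429 and 347 CPM in Stat5Adipoq 1 to 5. The groups were far apart, and the highest Stat5Adipoq library lay well below the lowest control. The mean was 1386 ± 217 CPM in control and 522 ± 157 CPM in Stat5Adipoq BAT (SD, n = 5 each), or 37.7% of control. This log2 fold change of -1.41 (standard error 0.18) was the largest of the 8 genes tested. Relative to Adipoq in the same library, Cfd was 134% ± 17.7 in control and 52.4% ± 11.9 in Stat5Adipoq BAT, and C3 was 156% ± 13.2 and 102% ± 12.8 (SD, n = 5 each, CPM without scaling by length). Cfd relative to C3 was between 73.9% and 110% in control and between 36.7% and 69.8% in Stat5Adipoq libraries, without overlap. Every Stat5Adipoq library thus held less Cfd per C3 than every control.

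Masp1 encodes a protease of the lectin pathway and was hardly detected. It had 5, 0, 4, 5 and 1 counts in controls 1 to 5 and 1, 1, 1, 1 and 2 counts in Stat5Adipoq 1 to 5, and a count of 0 allows up to 3. These counts were below the filter on low counts, and Masp1 entered only the fit without a filter, where its log2 fold change was -1.24 on 15 counts in all controls and 6 in all Stat5Adipoq libraries.

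Of the 9 genes, 8 passed the filter, and 3 of these were called, C4b, C3 and Cfd, all lower in Stat5Adipoq BAT. Among all 13568 tested genes, 1.31% were called lower, 1.40% higher and 2.71% in either direction. For 2 of the genes, C3 and Cfd, the libraries did not overlap, as compared to 2.04% of all tested genes that did not overlap and were lower. All 8 fold changes were below 0, with a median log2 value of -0.80, as compared to a median of -0.0028 over all tested genes. Since the genes were chosen with this comparison known, nothing is read from these counts. The count itself moved with the libraries used, since C4b was called in 3 of the 10 fits that left out 1 library, those without control 3, control 5 or Stat5Adipoq 1.

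**Figure D2:**
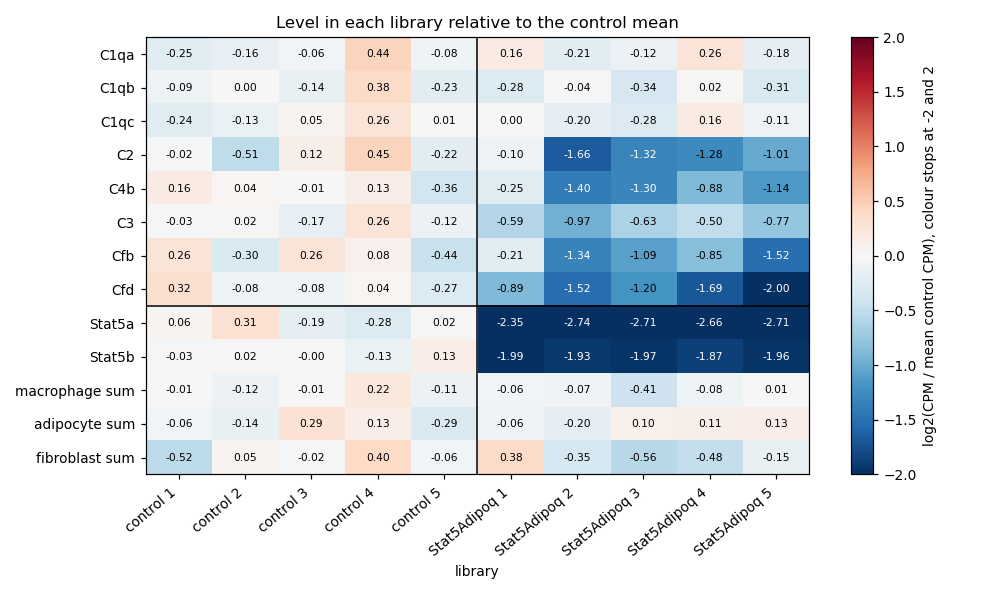
Level of the 8 tested genes, of Stat5a and Stat5b and of 3 marker sums in each library, as log2 of CPM over the control mean. Rows are genes or sums, columns are libraries, blue is below and red above the control mean, and numbers are the log2 values. Cfd is between -0.89 and -2.0 in Stat5Adipoq libraries, and C2, C4b and Cfb are near 0 in Stat5Adipoq 1 and lower in the other 4.

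The Stat5Adipoq libraries differed among themselves. Stat5Adipoq 1 was the highest of its group for C2, C4b, Cfb and Cfd. In the other 4 libraries C2 was between 3.72 and 5.83 CPM, C4b between 17.3 and 24.7 CPM and Cfb between 7.51 and 11.9 CPM, all below the lowest control. Without Stat5Adipoq 1 the log2 fold changes were -1.31 for C2, -1.18 for C4b, -1.19 for Cfb, -1.58 for Cfd and -0.71 for C3, and 5 of the 8 genes were called lower, as were 1.38% of the 13444 genes tested in that fit. Nothing is read from this count either. The sum of 7 fibroblast markers was 1613 CPM in Stat5Adipoq 1 and 841 to 1120 CPM in the other 4. Stat5a was at 20.7 CPM in Stat5Adipoq 1 as compared to 15.8 to 16.6 CPM in the other 4. Stat5b went the other way, with 21.0 CPM in Stat5Adipoq 1 as compared to 21.4 to 22.9 CPM. The part of these in the result was not tested. Without control 3, the library rich in muscle and liver markers, the log2 fold changes were -0.95 for C2, -0.94 for C4b, -0.72 for C3, -0.86 for Cfb and -1.43 for Cfd. Without control 3 and control 5 together, which was tried after the data were seen, they were -1.01, -1.04, -0.77, -0.96 and -1.51 in the same order.

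Markers of other cells were set beside the lower levels of C4b, C3 and Cfd. Of 8 adipocyte markers 0 were called by edgeR, DESeq2 or limma-voom and 2 had an unadjusted p below 0.05 in edgeR. Of 7 fibroblast markers 0 were called by these tools and 0 had an unadjusted p below 0.05. The fibroblast sums overlapped, at 866 to 1640 CPM in control and 841 to 1613 CPM in Stat5Adipoq libraries. All 5 endothelial markers had log2 fold changes above 0, with a median of 0.14. Of these, 0 were called by the same tools and 1 had an unadjusted p below 0.05 in edgeR. Of 4 markers higher in white than brown adipocytes 1 was called, Retn, with a log2 fold change of -1.53 from 86.0 ± 11.7 CPM in control to 29.7 ± 18.0 CPM in Stat5Adipoq BAT (SD, n = 5 each). The sum of the 4 was 105 to 138 CPM in control and 35.9 to 108 CPM in Stat5Adipoq libraries, and Retn made up most of it. The log2 fold changes of the other 3 were 0.62 for Lep, -0.17 for Nnat and -1.04 for Agt, and none of these was called. Of 4 mesothelial markers 1 had enough counts and was called, Lrrn4, with a log2 fold change of -1.25. The mesothelial sum was 5.36 to 9.89 CPM in control and 2.86 to 3.28 CPM in Stat5Adipoq libraries, and Lrrn4 made up nearly all of it. Upk3b was at 0 in all 10 libraries and Wt1 at 0 in all controls. Msln had 15 counts in all controls together and 1 in all Stat5Adipoq libraries. The sum thus describes Lrrn4 rather than a cell type. All 8 skeletal muscle markers had an unadjusted p below 0.05 and were lower in Stat5Adipoq BAT, with a median log2 fold change of -5.62, while edgeR and limma-voom called 0 and DESeq2 called 4 of them. Their sum was 4.45 to 3581 CPM in control and 1.99 to 41.3 CPM in Stat5Adipoq libraries, with control 3 highest for each of the 8. The part of Retn and of the mesothelial markers in the levels of C4b, C3 and Cfd was not tested.

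The early classical genes were compared with the alternative pathway genes Cfb and Cfd within each library, on the mean of log2 CPM, which is not scaled by length and is compared between genotypes only. The difference of all 5 classical genes minus the 2 alternative genes was between -3.34 and -2.69 in control and between -2.50 and -1.76 in Stat5Adipoq libraries. The groups did not overlap, and their means differed by 0.76 on the log2 scale. For C1qa, C1qb and C1qc alone the difference moved from -3.00 ± 0.32 to -1.88 ± 0.42 (SD, n = 5 each), again without overlap. For C2 and C4b alone it was -2.89 ± 0.16 and -2.69 ± 0.34 (SD, n = 5 each), and the libraries overlapped. The genotypes thus differed by 1.12 for the C1q genes and by 0.21 for C2 and C4b. These differences follow from the genes chosen and were not tested.

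**Figure D3:**
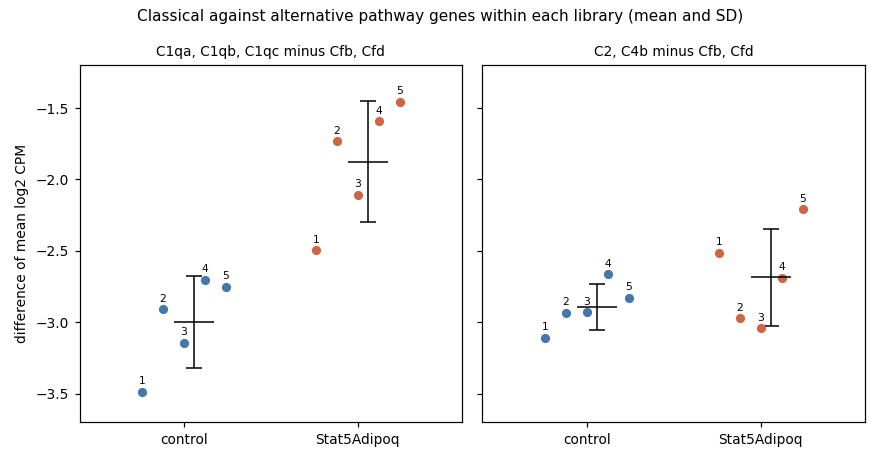
Classical minus alternative pathway genes in each library, for the C1q genes (left) and for C2 and C4b (right). The y axes give the difference of mean log2 CPM from Cfb and Cfd, points are libraries with their replicate number, and lines are the mean and SD of 5 libraries. The genotypes do not overlap on the left and overlap on the right.

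Variation among mice of one genotype, which the choice of genes did not use, was examined by correlating log2 CPM after subtraction of the genotype means over the 10 libraries. Of 36 pairs of genes, 32 had a correlation above 0, with a median r of 0.442. In exact two-sided permutation tests within genotypes, 6 pairs had an unadjusted p below 0.05 and 1 an adjusted p below 0.05. This pair was C1qa and C1qc, with r = 0.90 (exact permutation p = 0.001, adjusted p = 0.037) and Spearman's rho = 0.89 (exact permutation p = 0.0036, adjusted p = 0.13). Without the 2 libraries farthest from the median of C1qa, control 4 and Stat5Adipoq 4, its r was 0.75. Of all tested genes, 0.0442% had an r to C1qa as high as that of C1qc. The call was lost, with 0 pairs left, in 8 of the 10 fits without 1 library, all but those without Stat5Adipoq 3 or Stat5Adipoq 5, and when CPM were scaled by library size only.

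The other pairs did not pass the adjustment over 36 pairs. For them too, r is given again without the 2 libraries farthest from the median of the first gene. That distance was taken before genotype means were subtracted. For pairs of C2, C4b, Cfb and Cfd it kept Stat5Adipoq 1, the highest library of its genotype for these genes. Relative to the control mean, the log2 level of Stat5Adipoq 1 was -0.10 for C2, -0.25 for C4b and -0.21 for Cfb. The other libraries of its genotype were between -1.66 and -0.85 for these genes. The r given without 2 libraries is therefore no check on Stat5Adipoq 1, whose part in the r of these pairs was not tested. C4b and Cfb, both on chromosome 17 with C4a between them, had r = 0.86 (exact permutation p = 0.011, adjusted p = 0.17) and rho = 0.75 (exact p = 0.025, adjusted p = 0.46), and r was 0.89 without Stat5Adipoq 2 and Stat5Adipoq 3. C2 and C4b had r = 0.80 (exact p = 0.028, adjusted p = 0.2) and rho = 0.62 (exact p = 0.076, adjusted p = 0.46), and r was 0.70 without the same libraries. C2 and Cfb had r = 0.74 (exact p = 0.04, adjusted p = 0.24) and rho = 0.52 (exact p = 0.16, adjusted p = 0.56), and r was 0.70 without them. Both C2 and Cfb share words with Gm20547, whose part in this r was not tested. Cfb and Cfd, on different chromosomes, had r = 0.77 (exact p = 0.025, adjusted p = 0.2) and rho = 0.68 (exact p = 0.053, adjusted p = 0.46), and r was 0.65 without Stat5Adipoq 2 and Stat5Adipoq 5. C1qa and C3 had r = 0.79 (exact p = 0.014, adjusted p = 0.17) and rho = 0.64 (exact p = 0.07, adjusted p = 0.46), and r was 0.44 without control 4 and Stat5Adipoq 4. C1qb, the third C1q chain, had r = 0.66 to C1qa (exact p = 0.072, adjusted p = 0.37) and rho = 0.21 (exact p = 0.59, adjusted p = 0.82). Without control 4 and Stat5Adipoq 4 this r was -0.41, so that the relation of C1qa and C1qb rested on these libraries.

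Genes with the most similar pattern among mice were looked up for each of the 8 genes, over 10 libraries and among 10144 genes with at least 50 counts on average, leaving out the 9 genes themselves. They are a description without a test. The highest of 10144 correlations over 10 libraries is high through the search itself, and how high it would be for unrelated genes was not examined. The rho and the r without 2 libraries were taken for the same picked genes. For all genes named the rho was between 0.81 and 0.95, and the r without the 2 farthest libraries was between 0.73 and 0.97. For C2, C4b, Cfb and Cfd the libraries left out did not include Stat5Adipoq 1. For C1qa they were Fcgr2b (r = 0.94), an Fc receptor of myeloid and B cells, and Faf1 (r = 0.92), and for C1qc the endothelial gene Vwf (r = 0.91) and Chpf (r = 0.89). For C1qb they were 2310033P09Rik (r = 0.95) and Creld2 (r = 0.90). Cfd was most similar to Retn (r = 0.94), which encodes the adipokine resistin, and to Mrpl33 (r = 0.93), a protein of the mitochondrial ribosome. C3 was most similar to Ndufb8 (r = 0.95), a subunit of respiratory complex I, and to Gtf2ird1 (r = 0.93). Cfb was most similar to Degs1 (r = 0.95) and Trf (r = 0.94), whose exons overlap those of another GENCODE gene. C2 was most similar to Csgalnact2 (r = 0.95) and Chrdl1 (r = 0.92), and C4b to Lrrc8d (r = 0.95) and Adcy5 (r = 0.93).

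The rest of the complement system was examined in 46 further genes, which were listed by role and not by how they moved. Of these, 25 passed the filter, and 1 was called higher and 0 lower in Stat5Adipoq BAT by edgeR's quasi-likelihood test. This is 1 in 25, where 2.71% of all tested genes were called in either direction. At an unadjusted p below 0.05 there were 4, as compared to 15.2% of all tested genes. DESeq2, which called 4.86% of all tested genes, and limma-voom also called 1, the same gene. The fold changes were below 0 for 17 of the 25, with a median log2 value of -0.20 and a range of -1.04 to 0.42.

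The called gene was Cd59a (chr2:104095753-104115410, plus strand), which encodes a membrane protein that blocks the assembly of the membrane attack complex. Cd59a was at 82.4, 74.6, 92.6, 85.0 and 84.8 CPM in controls 1 to 5 and at 94.7, 97.3, 107, 111 and 111 CPM in Stat5Adipoq 1 to 5. All Stat5Adipoq libraries lay above all controls, as was found in either direction for 4.39% of tested genes. The log2 fold change was 0.31 (standard error 0.07, edgeR adjusted p = 0.033, n = 5 each). Cd59a was called in the 8 other settings but in only 3 of the 10 fits without 1 library, those without control 3, Stat5Adipoq 1 or Stat5Adipoq 2. Its adjusted p ranged from 0.0028 to 0.097 over all of these. It shares 3.98% of its 50-base words with Cd59b, which was at 9.0 ± 0.655 CPM in control and 10.2 ± 1.33 CPM in Stat5Adipoq BAT (SD, n = 5 each).

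**Figure D4:**
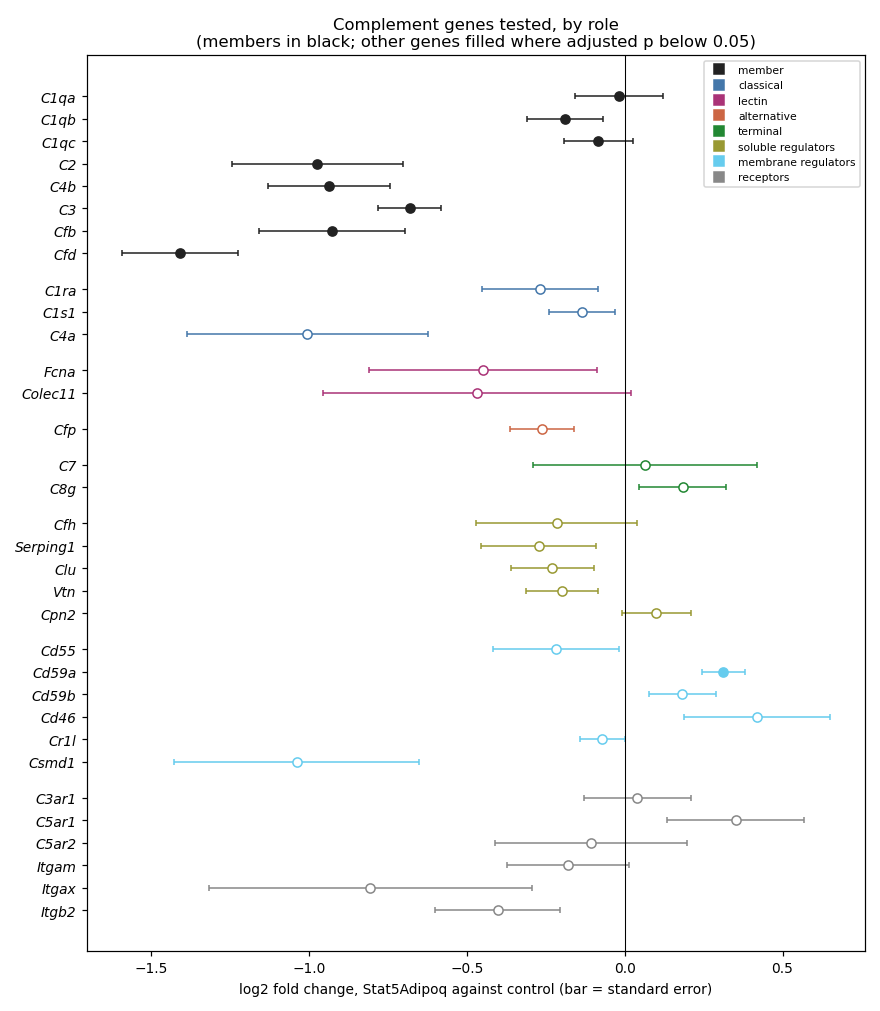
Log2 fold change of Stat5Adipoq against control for the 8 tested members of the list (black) and the 25 further complement genes tested (coloured by role). Points are edgeR estimates, bars are standard errors, and further genes are filled where the adjusted p was below 0.05. Cd59a, at 0.31, is the only filled point among the 25, and Cfd, at -1.41, has the lowest value.

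Besides Cd59a, 0 of these genes were called by edgeR, DESeq2 or limma-voom, and C4a, Cfp and Csmd1 had an unadjusted p below 0.05 in edgeR. For each group of roles the tested gene with the most CPM, which is not a level per length, is given. Among the other classical genes 3 of 5 were tested. C1s1, a protease of the C1 complex, was at 45.1 ± 4.35 CPM in control and 41.1 ± 6.38 CPM in Stat5Adipoq BAT (SD, n = 5 each). C4a had a log2 fold change of -1.0 (standard error 0.38) at 2.83 ± 1.42 and 1.47 ± 0.631 CPM (SD, n = 5 each), and shares 35.2% of its words with C4b. In the lectin pathway 2 of 7 genes were tested, and Fcna, a ficolin of macrophages, was at 3.57 ± 1.48 and 2.62 ± 1.17 CPM (SD, n = 5 each). The alternative pathway had 1 further gene, Cfp, which encodes properdin. Cfp was at 9.56 ± 1.17 CPM in control and 7.99 ± 0.416 CPM in Stat5Adipoq BAT (SD, n = 5 each) and had a log2 fold change of -0.26 (standard error 0.10).

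Of the terminal components, which form the membrane attack complex, 2 of 7 were tested. C7 was at 16.0 ± 6.80 CPM in control and 16.9 ± 8.12 CPM in Stat5Adipoq BAT (SD, n = 5 each). Of the soluble regulators, 5 of 10 were tested. Cpn2, a subunit of the carboxypeptidase that inactivates anaphylatoxins, was at 92.3 ± 16.0 and 98.8 ± 8.43 CPM, and Serping1, the C1 inhibitor, at 70.9 ± 16.98 and 58.8 ± 13.6 CPM (SD, n = 5 each). Of the membrane regulators 6 of 8 were tested, with log2 fold changes from -1.04 for Csmd1, at 1.15 ± 0.610 and 0.560 ± 0.190 CPM (SD, n = 5 each), to 0.42 for Cd46. Of the receptors 6 of 8 were tested, with log2 fold changes from -0.80 to 0.35, and Itgb2, the integrin chain of complement receptors, was at 5.54 ± 1.20 and 4.21 ± 1.12 CPM (SD, n = 5 each).

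The remaining 21 genes of the wider list were below the filter. Of these 3 had no count in any library, C1rb, Fcnb and Cd55b. Of the other 18, 16 had their highest CPM in control 3, the library rich in liver markers. Control 3 also had the fewest counts, 8.49 M, so that 1 count gives a higher CPM there than elsewhere. Masp2 had 3 counts in control 3 and 4 in Stat5Adipoq 2, and Susd4 had 2 and 3 in control 3 and control 4. Mbl2 and Colec10 rested on 1 count each. The share among other genes below the filter was not examined. Hc, which encodes C5, had 12 counts in control 3 and at most 4 in any other library, and C8a had 8 there and at most 1 elsewhere. Hc, C8a, Mbl1 and C4bp are known as liver genes, and the part of the liver markers in these counts was not tested.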

How the data were processed

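RNA-Seq of BAT from 5 control and 5 Stat5Adipoq mice was analysed, 1 library for each mouse. Reads of 50 bases had been aligned to GRCm38 by the authors, using STAR 2.5.0b, and the authors deposited raw counts per gene over exons from featureCounts 1.5.0-p1, listed by Entrez identifier. Whether strand was used in counting is not given in the sources used here. The authors' table of the comparison (DESeq2 1.16.1) served only to pair symbols with identifiers, and its fold changes and p-values, and the subsets of it, were not used. Masp1 was matched through RefSeq. Groups are from the sample labels.

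Genes with a sum of size factor normalized counts above 45 were kept, as in the methods, leaving 13568. Counts were compared by edgeR 4.0.16 in R 4.3.3 (quasi-likelihood F test, TMM, no covariate, Benjamini-Hochberg adjustment over all tested genes, threshold 0.05). Alternatives were DESeq2 1.42.0, limma-voom (limma 3.58.1), other scalings and filters, a replicate block and leaving out each library. Leaving out control 3 with control 5 was added after the data were seen. Correlations used exact permutations within genotypes (14400 arrangements). Scripts were tested on simulated data. RPKM used exon lengths of GENCODE M21. No pair of libraries differed by sampling noise alone.

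The 9 genes, the wider complement list and the marker lists were chosen with earlier results of these data known. Named beyond the 9 are called or non-overlapping genes of the wider list, the tested gene of each sublist with the highest mean CPM and, for each tested member, the 2 genes outside the 9 with the most similar pattern. Serping1, C4a, Cd46, Cd59b and Csmd1, genes named below the filter, and single marker genes were named after their values were seen.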

Additional observations from a re-analysis of the deposited data

Results flagged for a closer look

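In 9 of 50 groups of 5 libraries examined, 1 library lay far from the other 4, where chance gives about 2.5. C1qa was at 28.2 CPM in control 4 and at 17.4 to 19.8 CPM in the other controls. Control 4 was also the library with the most counts, 19.5 M as compared to 8.49 M to 10.9 M in the other controls, and its neutrophil markers summed to 5.61 CPM as compared to 0.548 to 0.962 CPM. In control 3 the liver markers summed to 93.0 CPM, as compared to 2.45 to 3.73 CPM, and the skeletal muscle markers to 3581 CPM, as compared to 4.45 to 297 CPM in the other controls. Stat5a was at 20.7 CPM in Stat5Adipoq 1 and at 15.8 to 16.6 CPM in the other Stat5Adipoq libraries. Stat5b was not raised in Stat5Adipoq 1, at 21.0 CPM as compared to 21.4 to 22.9 CPM in the others. The B cell markers of Stat5Adipoq 1 summed to 4.11 CPM, as compared to 3.01 to 3.32 CPM. The liver markers of Stat5Adipoq 2 summed to 8.21 CPM, as compared to 2.64 to 3.69 CPM. In Stat5Adipoq 3 the macrophage markers summed to 107 CPM and in the others of its genotype to 134 to 142 CPM, while its C1q genes summed to 54.3 CPM, the lowest of its genotype, as compared to 56.0 to 71.2 CPM. The complement genes were fitted again without each library and without control 3 and control 5 together.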

How the results depend on the processing

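Over 18 alternatives the log2 fold changes of C2, C4b, C3, Cfb and Cfd stayed below 0. When single libraries were left out they ranged from -1.31 to -0.82 for C2, -1.18 to -0.83 for C4b, -0.73 to -0.61 for C3, -1.19 to -0.81 for Cfb and -1.58 to -1.29 for Cfd. Those of C1qb and C1qc ranged from -0.24 to -0.07 and from -0.15 to -0.01, and that of C1qa, from -0.09 to 0.12, had the same sign in 13 of 18 alternatives. Between 2 and 5 of the 8 genes were called, from which nothing is read. The classical minus alternative difference of 0.76 was between 0.65 and 0.83 without single libraries. The number of genes called overall was 368 in edgeR and 660 in DESeq2 (334 lower and 326 higher), and 185 to 443 without single libraries. The wider complement calls were 0 or 1 without single libraries, and so were the pairs past adjustment, of which 0 were left when CPM were scaled by library size only. The cause was not tested.

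Replicate numbers are shared by the genotypes, but same-numbered libraries did not deviate together (correlations -0.23, 0.09, -0.10, 0.05 and -0.13). With the replicate number as a block, 273 genes were called, and the log2 fold changes were 0.00 for C1qa, -0.17 for C1qb, -0.07 for C1qc, -1.01 for C2, -0.98 for C4b, -0.68 for C3, -0.96 for Cfb and -1.45 for Cfd. At 8.49 M to 19.5 M counts per library, genes with few counts such as Masp1 have imprecise fold changes.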
